A study of Mus musculus with 2 samples.

Results

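The Gimap genes encode GTPases of immunity-associated proteins, and 7 of the 8 mouse genes listed (Gimap1, Gimap3, Gimap4, Gimap5, Gimap6, Gimap7 and Gimap9) were read in CD4 T cells without Menin and with it. They were found by matching the transcript accession of every non-control probe to the RefSeq gene table. This gave 8 probes among the 41174 on the array, 2 for Gimap3 and 1 for each of the other genes, whereas Gimap8 matched no probe and is not analysed here. Whole-series naming gave 18430 gene symbols with a value on both arrays. All 7 Gimap genes were well above background on both arrays, so none entered or left through a filter on dim signal.

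The study measured total RNA of 1 Menin KO sample and 1 Menin WT sample on single-colour Agilent arrays. Both were naive CD4 T cells from the spleens of female C57BL/6J mice. Both were stimulated for 2 days with immobilised antibody to TCR-beta (3 µg/ml) and an antibody to CD28 (1 µg/ml) in IL-2 (2.5 ng/ml), and then kept for 3 days in IL-2 alone. Men1 encodes Menin, which works with the MLL histone methyltransferases at gene promoters. How the gene was removed, and how many mice gave the cells, is not given in the sources used here. The title of the series names Menin, Bach2 and T cell senescence, and the comparison asked which transcripts differed without Menin.

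Gimap proteins are GTPases of lymphocytes that share one GTP-binding fold, related to that of the septins. Several are needed for the survival of T cells after they leave the thymus, while at least 1 favours their death. The genes lie side by side in the genome, and in this tissue they are best known from the lymphopenia of rats and mice that lack Gimap5. In the RefSeq table of GRCm38.p6 they occupy 1 stretch of chromosome 6 in the order Gimap8, Gimap9, Gimap4, Gimap6, Gimap7, Gimap1, Gimap5 and Gimap3, with no other protein-coding gene between them. Gimap6 and Gimap3 are transcribed from the minus strand and the other 5 measured genes from the plus strand.

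The start regions of 2 members are shown because they had the lowest (Gimap6) and the highest (Gimap5) difference between the arrays. The sequences are the 250 bases before the transcription start, 5′ to 3′ on the gene's own strand, from RefSeq on GRCm38.p6, for Gimap6 at chr6:48708245-48708494 (minus strand) and for Gimap5 at chr6:48745947-48746196 (plus strand). Capitals mark matches to 5 short letter strings searched on both strands.
Gimap6: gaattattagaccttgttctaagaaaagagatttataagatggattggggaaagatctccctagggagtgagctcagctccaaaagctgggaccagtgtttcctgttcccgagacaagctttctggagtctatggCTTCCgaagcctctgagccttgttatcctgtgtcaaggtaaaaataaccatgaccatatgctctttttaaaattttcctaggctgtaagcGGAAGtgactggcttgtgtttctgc
Gimap5: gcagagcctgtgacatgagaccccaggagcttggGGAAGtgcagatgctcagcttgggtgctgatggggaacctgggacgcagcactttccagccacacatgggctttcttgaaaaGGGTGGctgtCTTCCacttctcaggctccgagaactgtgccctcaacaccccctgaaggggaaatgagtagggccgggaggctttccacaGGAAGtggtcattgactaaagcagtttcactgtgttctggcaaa
The strings were GGAAG, the core bound by ETS factors, TGTGGT for RUNX factors, CTTTGA for TCF1 (the product of Tcf7), CCACCC for Klf factors and TGANTCA for AP-1 and Bach factors. Gimap6 held 2 ETS strings and none of the other 4. Gimap5 held 3 ETS strings and 1 Klf string, and no 2 matches overlapped in the windows of the family. Over the 9 windows of the 8 listed genes, the ETS string was found for 8 genes (it stood in 64.1% of all 32851 promoter windows), the Klf string for 5 (28.1%) and the RUNX string for 3 (14%). The TCF1 string (13.8% of all windows) and the AP-1 and Bach string (6.75%) were found for 0 of the 8. These are matches of letters and do not show binding, and the strings were chosen with the array results known.

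With 1 array per genotype there was no test, and all differences below are KO minus WT on the log2 scale, after each array was set to its 75th percentile of signal (650.3 on the KO array, 644 on the WT array). Signals are processed signals of single spots on a linear scale, and each ± is the error that the scanner software gave with that signal, about 10% of it. As this share was 10% for every Gimap signal, the error of a difference came to 0.20 for every member. It thus acts as a fixed limit of size and is not a spread measured on these spots. Probes printed several times had a spot-to-spot SD of the difference of 0.037 where both signals were 1000 or more (61 probes). It was 0.22 where the signal was under 100 on at least 1 array (33 probes), and 0.11 over all 138 such probes. Neither error holds the spread between mice, cultures or RNA preparations. In a bulk sample, fewer cells that carry a transcript and less of it per cell cannot be told apart.

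The Gimap genes read slightly lower in KO cells, with 6 of 7 genes and 7 of 8 probes below 0 and none of the 7 genes at least 2-fold apart. Among all named genes measured on both arrays 52.9% were below 0, and among all probes 57.7%. Of 13510 named genes with a usable value, 5.14% were at least 2-fold lower in KO cells and 10.8% at least 2-fold higher, and a count of 0 among 7 genes is near that background. The median Gimap difference was -0.31, against -0.03 over the 12475 genes on both arrays. Under the normexp background correction these medians were nearer to each other, at -0.12 for the Gimap genes and -0.06 over all genes. Differences ran over 1.16 log2 units, from -0.84 for Gimap6 to 0.32 for Gimap5.

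**Figure D1:**
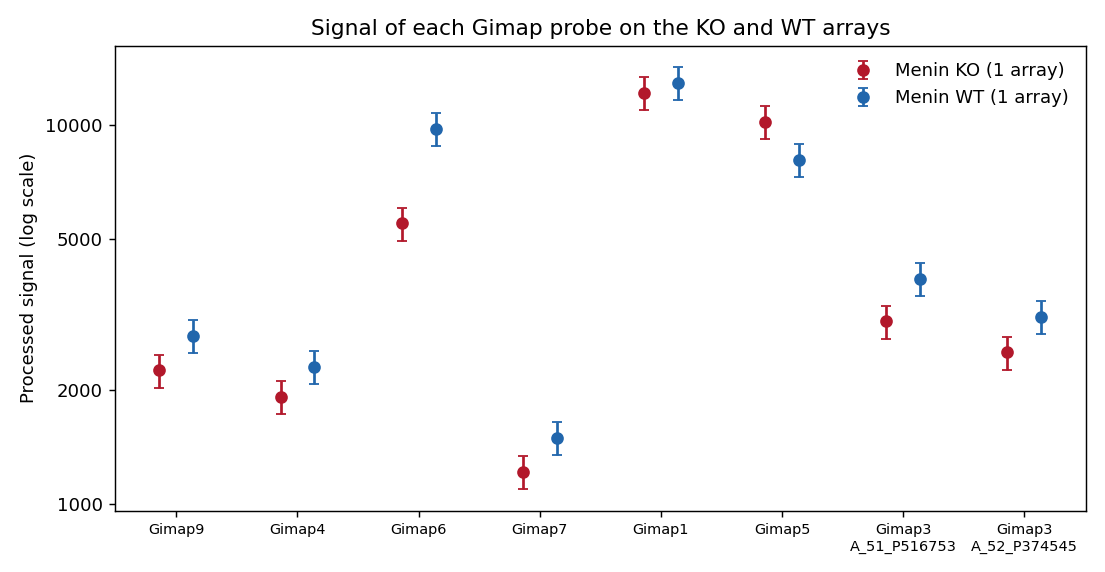
Processed signal of each Gimap probe (log axis, genes in chromosome order) on the Menin KO array and the Menin WT array, 1 spot each, with the scanner software's error as bars. The error bars of the arrays overlap for Gimap4 and Gimap1; Gimap6 has the widest gap (5497 in KO against 9754 in WT), and Gimap5 is the one probe with KO above WT.

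Gimap5, the member whose loss depletes T cells in rats and mice, was the only one with more signal in KO cells. Its probe gave 10169.8 ± 1017 in KO cells and 8084 ± 808 in WT cells, a difference of 0.32 or 1.25-fold. This was larger than its scanner error, and its sign was the opposite of that of every other member. A difference at least as large in size was held by 47.6% of all genes on both arrays. Gimap5 rests on 1 probe printed once. Gimap3, the close relative of Gimap5 that lies next to it and is a survival factor in mouse T cells, was read by 2 probes. Probe A_51_P516753 gave 3026 ± 303 in KO cells and 3914 ± 391 in WT cells, a difference of -0.38. Probe A_52_P374545 gave 2508 ± 251 in KO cells and 3116 ± 312 in WT cells, a difference of -0.33. The 2 probes thus differed by only 0.058 from each other, and placed Gimap3 1.31-fold and 1.25-fold lower in KO cells. The differences of Gimap5 and Gimap3 stood 0.70 apart, with an error of 0.29. Probe sequences were not at hand, so whether a probe also picks up transcripts of related Gimap genes was not tested.

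Gimap1, which mature T and B cells of the mouse need, was the member with the smallest difference. Its signal was 12174 ± 1217 in KO cells and 12924 ± 1292 in WT cells, a difference of -0.10 that lay within its scanner error. Of all genes on both arrays, 80.8% had a difference at least as large in size.

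Gimap6, a partner of the autophagy machinery whose loss lowers T cell numbers in mice, had the largest difference of the family. It gave 5497 ± 549.7 in KO cells and 9754 ± 975 in WT cells, a difference of -0.84 or 1.79-fold lower in KO cells. It was the one member beyond 2 scanner errors and the one past a 1.5-fold limit, which 12.7% of all named genes passed in the lower direction. Of the genes on both arrays 6.54% had a lower difference and 17.2% a difference at least as large in size. Gimap6 rests on 1 probe printed once, so no further spot or probe checks it.

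Gimap4, which speeds the death of T cells in mice and rats, gave 1911 ± 191 in KO cells and 2295 ± 229.5 in WT cells, a difference of -0.28. Gimap7, whose human counterpart stimulates GTP hydrolysis by other members, gave 1211 ± 121 in KO cells and 1492 ± 149 in WT cells, a difference of -0.31. Gimap9 gave 2249 ± 225 in KO cells and 2774 ± 277 in WT cells, a difference of -0.32. Gimap4, Gimap7 and Gimap9 were each beyond 1 scanner error and within 2, and they differed from each other by at most 0.04, less than their error of 0.29.

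The members fell in the order Gimap6 (-0.84), Gimap3 (-0.38), Gimap9 (-0.32), Gimap7 (-0.31), Gimap4 (-0.28), Gimap1 (-0.10) and Gimap5 (0.32). Neighbours in this order from Gimap3 to Gimap1 did not differ beyond their error, whereas Gimap6 and Gimap3, and Gimap1 and Gimap5, did. Of the 21 pairs of members, 11 differed by more than the error of the pair and 6 by more than 2 such errors. Each of those 6 held Gimap5 or Gimap6. As that error was 0.29 for every pair, these counts apply a fixed limit of size and are not a test between members. The lowest 2 were the 2 genes on the minus strand. The middle part of the distribution of all genes, from the 25th to the 75th percentile, ran from -0.31 to 0.29 and held 2 of the 7 members (Gimap4 and Gimap1), with Gimap7, Gimap9 and Gimap5 just outside it.

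**Figure D2:**
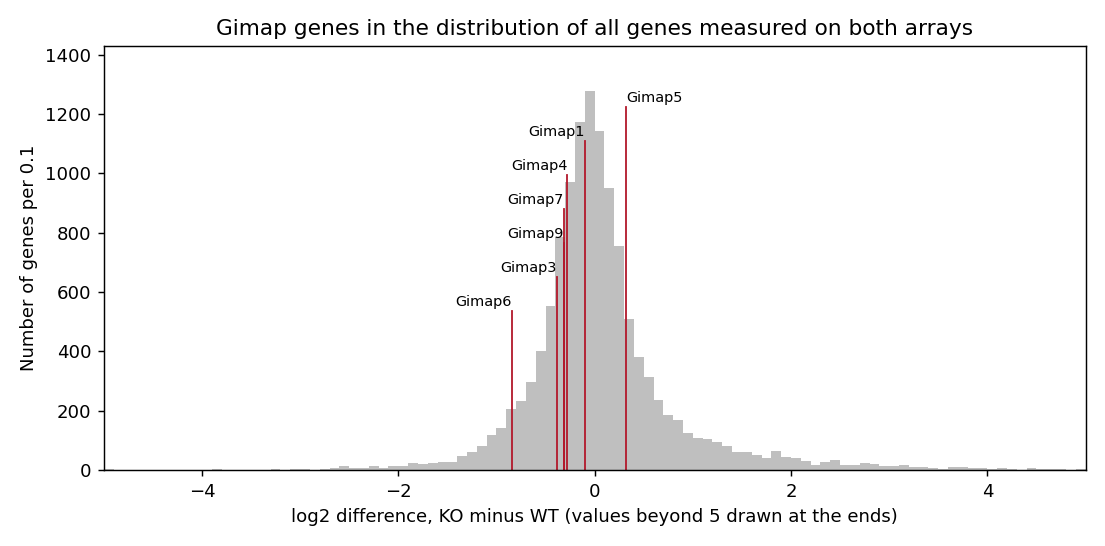
Number of genes per 0.1 log2 units (y axis) against the log2 difference KO minus WT (x axis) for the 12475 genes well above background on both arrays, with a line at each Gimap gene. Gimap6 at -0.84 lies on the lower shoulder and Gimap5 at 0.32 on the upper side of the peak; line heights serve only to keep the names apart.

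Differences within the cluster followed no single direction along the chromosome. Gimap6 (-0.84) stands between Gimap4 (-0.28) and Gimap7 (-0.31), and Gimap5 (0.32) between Gimap1 (-0.10) and Gimap3 (-0.38). Of the 10 nearest protein-coding genes, 5 on either side, 7 had a probe above background, and 0 of these were at least 2-fold apart. That count is near the shares over all named genes (5.14% lower and 10.8% higher). Before Gimap8 lie Lrrc61 (-0.51), Rarres2 (a bound of 0.32, as its WT signal was not well above background), Repin1 (0.64) and Zfp775 (0.03). Beyond Gimap3 lie Tmem176b (0.51), Tmem176a (-0.02, and 0.21 by another probe) and Doxl1 (-0.47). The neighbours had both signs and a median of 0.03. Under the normexp background correction Zfp775 (-1.21) and Doxl1 (-1.07) passed 2-fold and Tmem176b was at -0.32. Zfp775 was dim, at 14.7 in KO cells and 14.3 in WT cells, while Repin1 read 695 in KO cells and 442 in WT cells. Rarres2, Tmem176a and Doxl1 were also under 100 on both arrays, and Tmem176b on the WT array, where the spot-to-spot spread is larger.

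**Figure D3:**
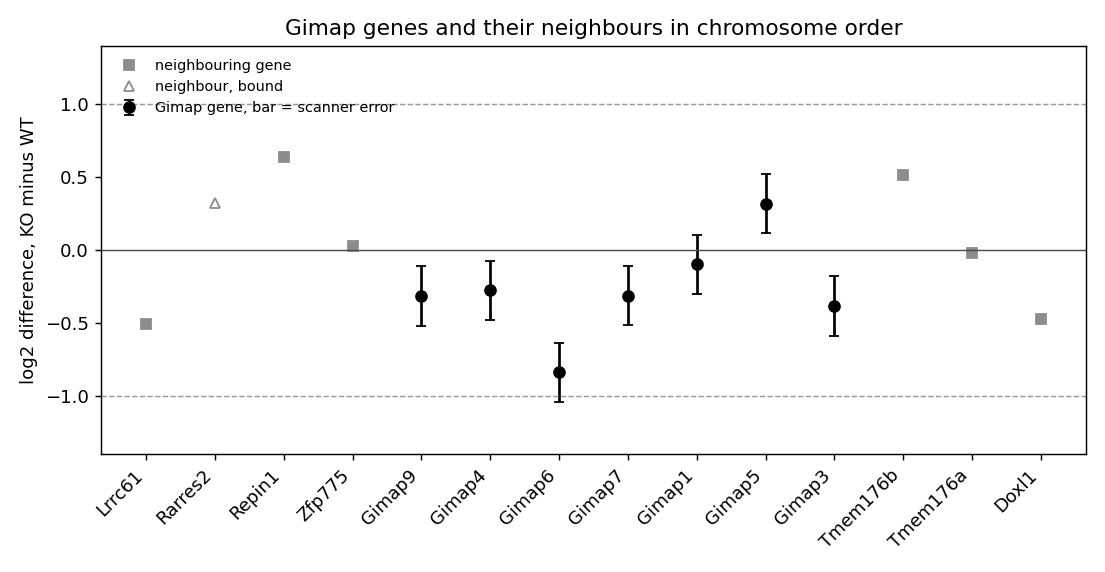
Log2 difference KO minus WT (y axis) for the 7 Gimap genes (black, bars are the scanner error of the difference) and the 7 measured neighbours (grey) in chromosome order. Dashed lines mark 2-fold; every gene lies between them, Gimap6 at -0.84 and Repin1 at 0.64 being nearest to the lines.

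Gimap transcripts are abundant in naive T cells, and their values are set beside a list of 23 naive and quiescent T cell genes. Of these 12 were at least 2-fold lower in KO cells, 0 were at least 2-fold higher and 11 lay between. The shares over all named genes were 5.14% lower and 10.8% higher. The median of the list was -1.01. For the Gimap genes the count was 0 of 7 and the median -0.31. Bach2, a repressor of effector genes, gave 604 in KO cells and 4643 in WT cells (-2.96). Tcf7 gave 109.5 in KO cells and 2413 in WT cells (-4.47, and -4.25 by its other probe). Dapl1 (-6.98), Nsg2 (-4.92) and the costimulatory receptor Cd27 (-2.33) were also among the lowest of the list. Dapl1 was dim in KO cells (16.8), and under the normexp background correction it had -4.63. The list also held genes with no such difference, among them Klf2 (0.15), S1pr1 (0.57) and Ccr7 (-0.29).

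Among 26 genes of lymphocyte survival and apoptosis, to which several Gimap proteins have been linked, 2 were at least 2-fold higher in KO cells, 0 were lower, 23 were less than 2-fold apart, and for 1 the bound did not reach 2-fold. Over all named genes 10.8% were at least 2-fold higher and 5.14% lower, so 2 higher and 0 lower among 26 is near that background. The median was -0.05. The survival gene Bcl2 gave 12845 in KO cells and 22244 in WT cells (-0.81, and -0.86 by its other probe), beside -0.84 for Gimap6. Its relative Bcl2l1 had -0.33 and the death effector Bax -0.12. Bcl2l11, encoding the death activator Bim, had -0.90, although its other probe gave -0.003. Il7r, the receptor chain for the survival cytokine IL-7, gave 7736 in KO cells and 4300.2 in WT cells (0.83, and 0.92 by its other probe). The 2 higher genes were the death activators Pmaip1 (1.30) and Bmf (1.62, although its other probe gave 0.02). Bmf was under 2-fold with the normexp background correction (0.47) and as a mean over its probes (0.82), while Il7r passed 2-fold under normexp (1.04).

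Other GTPase families did not share one value. Of 10 septin genes measured (of 13 listed) 3 were at least 2-fold higher in KO cells, beside 10.8% of all named genes. The remaining 7 septins lay between, and the septin median was -0.12. The higher ones were Septin5 (2.46, with a second probe not well above background in KO cells at a bound of -0.61), Septin4 (2.22) and Septin8 (1.13). Septin5 was under 2-fold with the normexp background correction (0.73) and as a mean over its probes (0.92). Of 15 interferon-induced GTPases measured (of 20 listed), none was an Mx gene. In KO cells 2 passed the 2-fold limit downwards, beside 5.14% of all named genes, and 13 did not reach it. These 2 were Iigp1 (-1.19) and Gbp9 (-1.14, and -0.36 by its other probe), and the median of -0.32 was next to that of the Gimap genes. Under the normexp background correction neither reached 2-fold, with -0.92 for Iigp1 and -0.85 for Gbp9, and as a mean over its probes Gbp9 had -0.75.

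**Figure D4:**
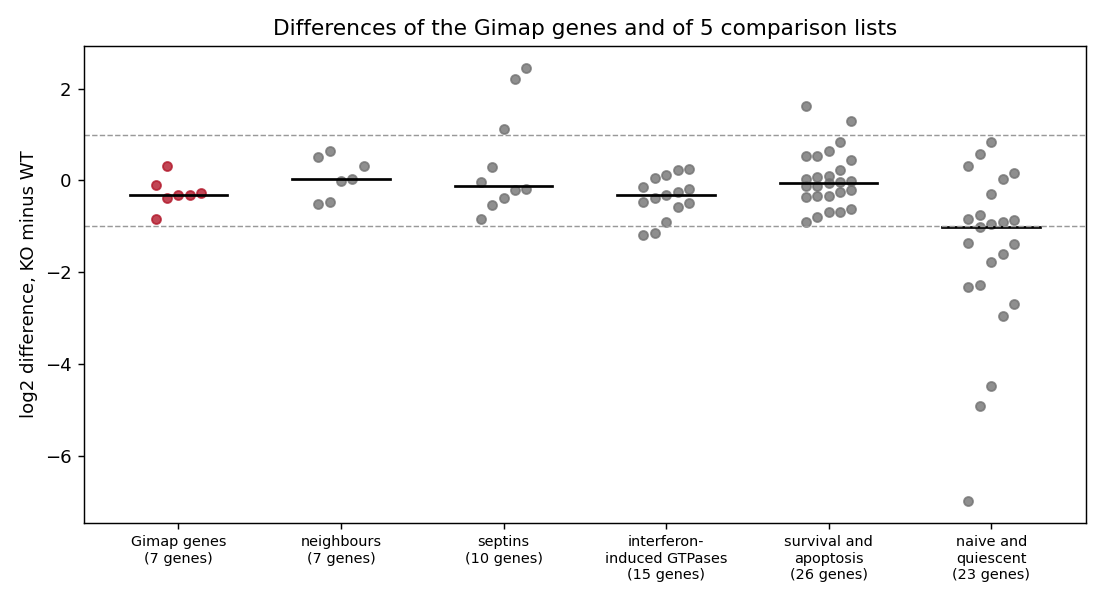
Log2 difference KO minus WT (y axis) of each measured gene in the Gimap family and in 5 comparison lists, with list medians as black lines and 2-fold limits dashed. All 7 Gimap genes lie between the limits, whereas 12 of 23 naive and quiescent genes lie below the lower one.

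The sample check and the other cell types bear on these values. Men1 read 459 in KO cells and 1081 in WT cells by 1 probe (-1.25), and whether that probe lies in the deleted part is not known here. The T cell markers were bright in both, for example Cd3d at 55593 in KO cells and 62714 in WT cells, and of 8 such genes 2 were at least 2-fold lower in KO cells (Cd5, -1.73, and Cd2, -1.21). Of 3 CD4 T cell markers 1 was at least 2-fold lower in KO cells and 2 lay between. The lower one was Cd40lg (-1.09), dim at 34.6 in KO cells and 73.3 in WT cells. Cd4 itself read 279 in KO cells and 443 in WT cells (-0.68). Zbtb7b read 2766 in KO cells and 2893 in WT cells (-0.08). Markers of cells other than CD4 T cells, several of which also carry Gimap transcripts, were in part higher in the KO array. For all marker counts, the shares over all named genes were 10.8% at least 2-fold higher and 5.14% lower in KO cells. Cd8a read 3213 in KO cells and 312 in WT cells. It was the 1 CD8 T cell marker of 2 listed with a named probe above background on either array. Whether Cd8b1, the other, had no probe or only a dim one was not recorded. Of 5 natural killer markers 3 were at least 2-fold higher and 1, Eomes (-1.20), was lower. Their summed signals were 7490.1 in KO cells and 2091 in WT cells, of which Fcer1g gave 5087 and 669. The defining receptor Ncr1 was dim in KO cells (21.7) and not well above background in WT cells, and its bound of 0.62 was under 2-fold. Of 4 measured B cell markers 1 was at least 2-fold higher (sums 1593 in KO cells and 899.9 in WT cells). Of 5 mast cell and basophil markers 3 were higher (sums 648 in KO cells and 103 in WT cells), and of 2 red cell markers 2 (sums 547 in KO cells and 194 in WT cells). Of 6 macrophage markers 2 were higher (sums 555 in KO cells and 356 in WT cells) and 3 were below 0, among them Mpeg1 (-0.64) and Csf1r (-0.39), with a median of -0.19. Of 3 markers of endothelial cells and platelets 1 was lower and 2 lay between (sums 346 in KO cells and 257 in WT cells). The part of these cells in the Gimap differences was not tested.

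Signs of the members held under most ways of processing. Over 8 ways, including the reported one, Gimap6 ranged from -0.92 to -0.59 and Gimap5 from 0.24 to 0.57, so these 2 kept their signs and stayed within 2-fold. Gimap1 ranged from -0.18 to 0.10 and turned positive only under the normexp background correction. Gimap3 (-0.46 to -0.14 over both probes), Gimap4 (-0.35 to -0.12), Gimap7 (-0.39 to -0.14) and Gimap9 (-0.39 to -0.11) were below 0 in all 8.

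**Figure D5:**
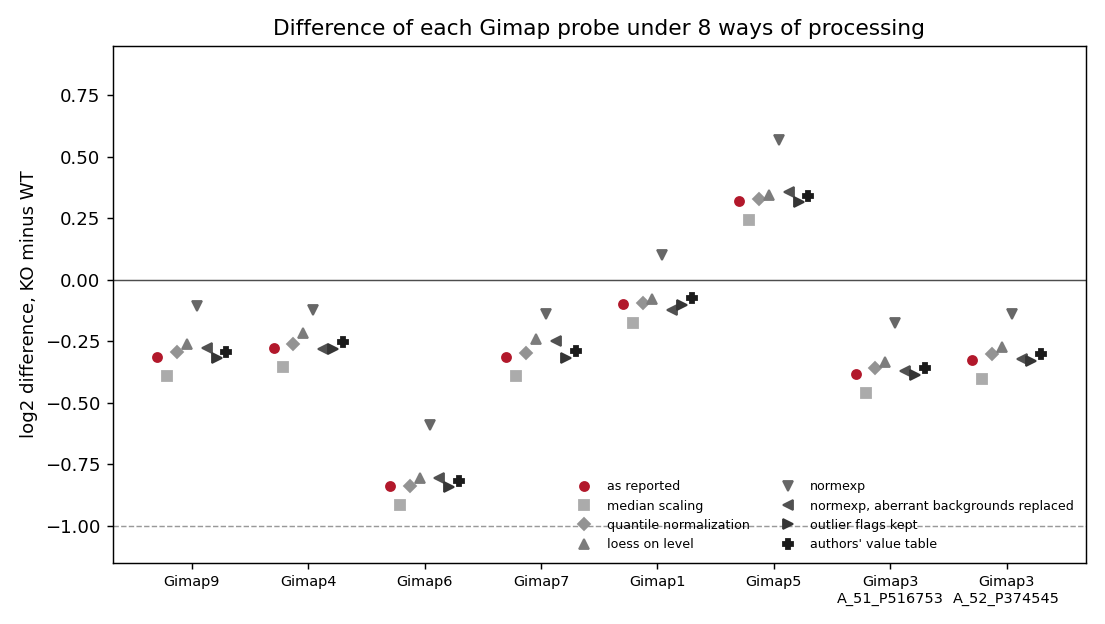
Log2 difference KO minus WT (y axis) of each of the 8 Gimap probes (x axis) under 8 ways of processing, the reported one in red. Normexp gives the highest value for every probe, and Gimap1 is the one probe that crosses 0 (0.10 under normexp, -0.10 as reported).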

How the data were processed

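The intensity values were deposited by the authors as single-colour scanner files. Per the file headers the software was Agilent Feature Extraction 10.7.3.1, named as 10.7 by the submitters' processing notes, with probe annotation on mm9, and the processed signal is background-subtracted and detrended, with no scaling between arrays. The authors' deposited value table is on the log2 scale: compared with the scanner signals, each column equals log2 of the processed signal less 1 constant per array (99.7% of probes, tolerance 0.01), with medians of -3.90 (KO) and -3.97 (WT). This settles its scale, centring and direction.

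Spots with outlier flags were left out (103 on KO, 115 on WT, of 43379 non-control spots; 0 were saturated). Spots of a probe were averaged on the log2 scale and the 75th percentile of the array was subtracted. Of 41164 probes with a value on both arrays, 27043 were named by unversioned accession through RefSeq (GRCm38.p6), and the rest had no name. Of non-control spots 63.5% (KO) and 59.5% (WT) were well above background. A gene was read by its brightest probe that cleared background on either array. Where only 1 array cleared it, the difference is a bound, taken against the detection limit of the other array or the dim signal itself, whichever was higher. For 276 of 13786 genes no bound was left.

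The size rule was 2-fold; 1 array per group allows no test, and the number of arrays limits the precision. Members, lists and the rule for named genes were chosen with earlier results of these data known: every Gimap probe, Men1, all measured neighbours, the members of each list at least 2-fold apart (up to 6), Bcl2, Bcl2l1, Bcl2l11, Bax and Il7r, and markers. A gene that meets this rule is not reported here. Klf2, S1pr1 and Ccr7 were added after their values were seen. Normexp used median signals, as no mean signal column was at hand. The code for the calls was checked on data simulated from the WT array, with known shifts and spot noise alone. That check held no spread between cultures or mice, so it does not show how sure the calls are. Tools were Python 3.11.15, pandas 2.3.3, matplotlib 3.10.9, R 4.3.3 and limma 3.58.1.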

Additional observations from a re-analysis of the deposited data

How the results depend on the processing

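No paired analysis was possible because each genotype had 1 array. The count of 0 Gimap genes at least 2-fold higher and 0 lower held under all other scalings, background corrections, filters and probe rules tried; a 1.5-fold rule gave 1 lower (Gimap6). Normexp, whose WT background held 6 spots over 200 (0 on KO), gave a Gimap median of -0.12, against -0.06 over all genes. It gave 0.10 for Gimap1, with 6 of 8 Gimap probes below 0, and 601 genes higher and 1682 lower. With those backgrounds replaced the Gimap median was -0.28, against -0.05 over all genes, and 760 genes were higher and 369 lower. With no filter on dim probes 1113 genes were lower (694 as reported). A 1.5-fold rule gave 2338 higher and 1712 lower over all genes and 8 higher and 26 lower over the comparison lists (5 and 14 at 2-fold), and a 4-fold rule gave 542, 158, 2 and 7. The mean over a gene's probes gave 3 higher genes over the lists. Of the single probe and gene values, Gimap1, Bax, Tmem176a, Tmem176b and Zfp775, all under 2-fold as reported, took the other sign under at least 1 alternative; Gbp9 was also under 2-fold with the aberrant backgrounds replaced (-0.97). With single arrays, differences as small as those of most Gimap genes cannot be told from the spread between cultures, which was not measured.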
